A study of Mus musculus with 2 samples.

Results

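Satellite cells and myoblasts, the myogenic cells of injured muscle, were taken from the single-cell library of quadriceps 3 days after injury. A cell was counted as myogenic when the UMIs (counted RNA molecules) of *Pax7*, *Myf5*, *Myod1* and *Myog* summed to at least 2, *Des* had at least 1 UMI, and *Lyz2*, an abundant macrophage transcript, made up less than 0.5% of its UMIs. The members were thus chosen by measured UMIs of these 6 genes. By this rule 218 of the 4627 cells that passed the quality limits were myogenic (4.71%, 95% exact binomial interval 4.12 to 5.36), out of 11362 cells in the libraries of day 1 and day 3 together. The 218 cells were then split into 86 with at least 1 *Myog* UMI (*Myog*-positive) and 132 with none (*Myog*-negative). Since UMIs of these genes chose and split the cells, and all genes come from the same cells, every difference between the groups is given as a description and not as a test.

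The animals were wild-type male C57BL/6J mice aged 14 weeks whose quadriceps was injured by injected BaCl2, and the muscles of 5 mice were pooled into 1 library for each day. Mononuclear cells were isolated, cleared of debris, dead cells and duplexes by a light-scatter sort, and frozen before droplet capture, so multinucleated fibres were outside the sample. With 1 library per day no comparison has a replicate, and the intervals given for levels, shares and ratios cover counting error only. The study followed macrophages through repair, and the myogenic cells of the same tissue were captured beside them.

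Satellite cells are the muscle stem cells that lie between the fibre and its basal lamina and are marked by the transcription factor *Pax7*. After injury they leave quiescence, switch on *Myf5* and *Myod1* and divide as myoblasts. Cells that commit to differentiation switch on *Myog*, leave the cell cycle, make contractile proteins and fuse into new fibres.

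Myogenic cells were deeply sampled, with a median of 44307.5 UMIs per cell (10865 to 105802) and 6133 genes per cell. The median was 25635.5 UMIs in 704 cells of the same library chosen as fibro-adipogenic progenitors (FAPs, *Pdgfra* with collagen transcripts) and 15673 UMIs in 2055 cells chosen as macrophages (*Adgre1* with *Fcgr1*). Cells that met the myogenic rule were left out of both groups. *Myog*-positive cells had a median of 42140.5 UMIs and 5.55% mitochondrial UMIs, and *Myog*-negative cells 46028.5 UMIs and 5.13%. The libraries of day 1 and day 3 shared 0 barcodes among their cells. A mitochondrial limit of 7.5% removed 2013 of the largest barcodes of day 3 (30.3%), among them 76 that met the rest of the myogenic rule.

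Few cells lay near the thresholds of the rule. With the other conditions met, 211 cells had 0 UMIs of the 4 factors, 7 had 1, 2 had 2, 7 had 3, 4 had 4 and 205 had 5 or more. For *Des*, which encodes the intermediate filament desmin, 2 cells had 0 UMIs, 0 had 1, 1 had 2 and 212 had 5 or more. The *Lyz2* limit left out 7 cells, and 10 members lay between 0.2% and 0.5%.

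*Myod1*, the factor of activated myoblasts, was detected in 204 of the 218 cells (93.6%) with a median of 20 UMIs per cell and a highest of 132. *Pax7* was detected in 126 cells (57.8%) and *Myf5* in 116 (53.2%), both with a median of 1 UMI, and highest values of 9 and 20. *Des* had 2 to 78 UMIs in every cell, with a median of 21. *Myog*, the factor of committed myocytes, was found in 86 cells (39.4%, interval 32.9 to 46.3) with a median of 10 UMIs and a highest of 162 among them. These genes chose the cells, so their presence is no finding, but their combinations were not fixed. Classes were formed by *Pax7*, *Myod1* and *Myog*, without regard to *Myf5*. *Pax7* and *Myod1* without *Myog* was the largest class with 73 cells. *Myod1* without *Pax7* or *Myog* followed with 47, then *Myod1* and *Myog* without *Pax7* with 43, and *Pax7*, *Myod1* and *Myog* together with 41. *Pax7* with neither *Myod1* nor *Myog* was found in 11 cells (5.05%). All of them also held *Myf5*, and their *Mki67* UMIs ran from 0 to 27. *Calcr*, a receptor of quiescent satellite cells, had 8 UMIs in all 218 cells, and *Myf6*, a late factor of the same family, had 3. Cells with *Pax7* but neither *Myod1* nor *Myog* were thus few beside the 204 cells with *Myod1*.

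**Figure D1:**
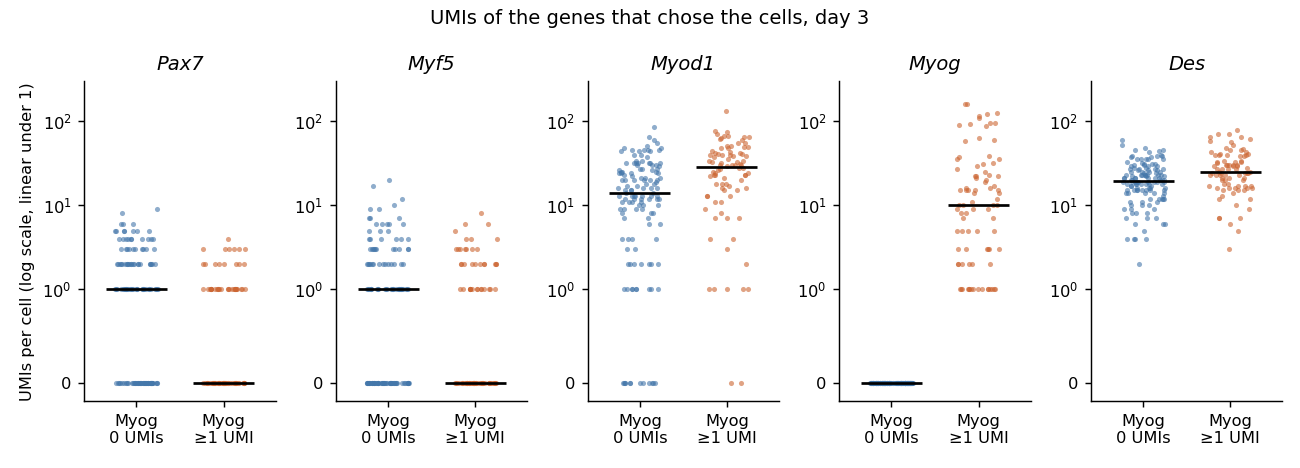
UMIs per cell of the 5 genes that chose the myogenic cells of day 3 (log axis, linear under 1), with 1 point per cell, a line at each median and the *Myog*-negative and *Myog*-positive cells apart. *Myod1* and *Des* sit at medians of 28.5 and 25 UMIs in *Myog*-positive cells against 14 and 19.5 in *Myog*-negative cells, and the groups overlap for both genes.

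Stray RNA in droplets gives UMIs of a gene to cells that do not express it. *Myog* was detected in 1.56% of FAPs and 0.876% of macrophages, *Pax7* in 0.284% and 0.195%, and *Myod1* in 1.56% and 1.41%, with no more than 1 *Myog* UMI in any FAP. Macrophages held up to 10 *Myog* and 24 *Myod1* UMIs, with 2 cells at 5 or more *Myog* UMIs and 3 at 5 or more *Myod1* UMIs. After every cell was thinned to 3000 UMIs, which kept all 218 myogenic cells, left out 5 FAPs and left out 2 macrophages, *Myog* was detected in 21.1% of myogenic cells, 0.286% of FAPs and 0.0974% of macrophages. The thinned shares of *Myod1* were 61.9%, 0.429% and 0.195%. Because cells that met the myogenic rule were not counted as FAPs, the rule itself held down the FAP values of these genes in part. In barcodes with no more than 100 UMIs, which hold mostly free RNA, *Myog* had 31.0 counts per 1e+06 UMIs (CPM). The complement genes *C1qa*, *C1qb* and *C1qc*, which macrophages make, limited free RNA to at most 7.93% of the UMIs of myogenic cells, and at that share a cell of median depth would hold 0.109 *Myog* UMIs. Exactly 1 *Myog* UMI was found in 16 cells, all counted as *Myog*-positive, and whether these UMIs were stray was not tested.

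Several single genes of the muscle lineage outside the rule, picked as examples from the lists, were higher in the myogenic cells than in FAPs. *Cdh15*, which encodes M-cadherin of satellite cells, had 128 CPM in the myogenic cells against 0.498 in FAPs, and was detected in 92.2% of them. *Itga7*, the laminin-binding integrin of muscle, had 130 CPM against 3.83, and *Met*, the receptor of hepatocyte growth factor, was found in 96.8% of the cells. *Eya1*, a transcriptional coactivator, had 34.6 CPM against 0.348. The thinned share of *Cdh15* was 26.6% in myogenic cells and 0.143% in FAPs.

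The 10 genes with the highest ratio of myogenic cells over all other day 3 cells (at least 200 UMIs in myogenic cells, rule genes left out) combined contractile, developmental and epithelial-type genes. They were *Tnnt2* (troponin T of embryonic muscle), *Rbm24* (a muscle RNA-binding protein), *Gm28653*, *Ptgds* (prostaglandin D synthase), *Chrna1* (the alpha subunit of the muscle acetylcholine receptor), *Krt18* and *Krt8* (keratins of simple epithelia), *Lbx1* (a homeobox factor of migrating limb muscle precursors), *Ankrd1* (an ankyrin repeat protein of striated muscle) and *Igfbp2* (a binding protein of insulin-like growth factors). *Chrna1* had 413 CPM in myogenic cells and 1.13 in the other cells, a log2 ratio of 8.51, and was found in 216 of 218 cells with a median of 18 UMIs. *Ankrd1* had 291 against 0.861 CPM and *Rbm24* 123 against 0.202 CPM. *Lbx1* had a lower level, 33.9 CPM against 0.0942, and was found in 70.2% of the cells. *Gal*, which encodes the neuropeptide galanin and was picked out after its values were seen, had 960.5 CPM (941 to 980) against 3.08 in the other cells. It was detected in 205 of the 218 cells, with a median of 34 UMIs and a highest of 220. Neither the *Myog*-positive nor the *Myog*-negative cells stood out for it, with medians of 31.5 and 34 UMIs.

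**Figure D2:**
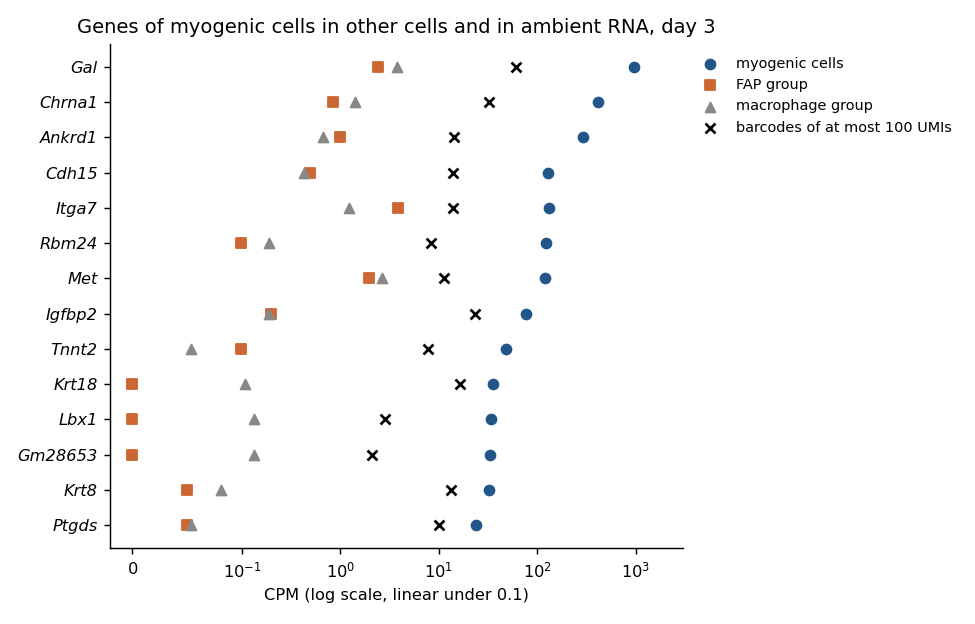
Levels (CPM, log axis, linear under 0.1) of genes outside the rule in myogenic cells, FAPs, macrophages and barcodes of no more than 100 UMIs of day 3, with 1 point per group. *Gal*, *Chrna1* and *Cdh15* lie at 960.5, 413 and 128 CPM in myogenic cells, above the other 3 groups.

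Set against FAPs of the same library, myogenic cells had more cell cycle transcripts and fewer matrix and signalling transcripts. Over 11992 genes with at least 50 UMIs, 15.5% were at least 2-fold higher and 27.5% at least 2-fold lower in myogenic cells, and the median log2 ratio was -0.13. Of 37 genes of S phase 27 were at least 2-fold higher and 0 lower, with a median log2 ratio of 1.45, and of 52 genes of G2 and M phase 30 were higher and 0 lower, with a median of 1.10. Of 27 genes of matrix and basal lamina 25 were at least 2-fold lower and 1 was higher (median -3.58), and of 28 secreted signals 21 were lower and 1 was higher (median -3.25). The genes that went the other way were *Lama5*, a laminin chain, with 21.8 CPM against 0.0995 in FAPs, and *Igf2*, a growth factor, with 20.97 against 2.04. Of 34 receptors for factors made by macrophages and stroma 19 were lower and 4 higher, *Met* and *Fgfr4* among the latter. Lists of the lineage itself were mixed. Of 17 myogenic factors outside the rule 7 were higher and 2 lower (median 0.38), of 19 surface genes 9 were higher and 4 lower (0.24), and of 18 quiescence and stem cell genes 3 were higher and 5 lower (-0.16).

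Within the myogenic cells the largest ratios were those of muscle structural genes. Of 9235 genes with at least 50 UMIs (*Myog* left out), 172 were at least 2-fold higher in *Myog*-positive cells (1.86%) and 180 at least 2-fold lower (1.95%), around a median log2 ratio of -0.01. The higher genes were detected in a median of 81 of the 218 cells and 14 of the 172 had a higher level in free RNA than in either group. The lower genes were detected in a median of 46 cells and 128 of the 180 had a higher level in free RNA than in either group. Free RNA made up at most 7.93% of the UMIs, so a level below it does not show that a gene's UMIs were stray. With free RNA subtracted at that share, 160 of the 172 higher and 113 of the 180 lower genes still had 50 UMIs. All of these stayed past 2-fold. That outcome was set by the subtraction, which took the same level from both groups and so widens any ratio. It does not address stray RNA that differs between the groups.

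The sarcomere list, the proteins of the contractile apparatus, lay on one side. Of its 40 genes 3 had no UMI and 20 had at least 50, of which 17 were at least 2-fold higher in *Myog*-positive cells and 0 lower, with a median log2 ratio of 2.85 beside -0.01 for all genes. Summed over the list, *Myog*-positive cells had 3994 CPM and *Myog*-negative cells 1731 (log2 ratio 1.21, interval 1.17 to 1.24). Per cell the sum ran from 800 to 17175 CPM with a median of 3343 in *Myog*-positive cells and from 311 to 4911 with a median of 1677 in *Myog*-negative cells, so the groups overlapped. The same sum had medians of 297 CPM in FAPs and 75.7 in macrophages. Transcripts of the list were therefore present in *Myog*-negative cells as well, but unevenly. *Ankrd1* had 289 CPM there, while *Myh3*, *Tnni1* and *Actc1* had 2 UMIs each.

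The 10 genes with the highest ratio, among genes with at least 100 UMIs, were 6 of the sarcomere list, the Z-disc gene *Pdlim3*, both fusion proteins of muscle and 1 unnamed transcript. *Myh3*, the embryonic myosin heavy chain, had 35.9 CPM in *Myog*-positive and 0.327 in *Myog*-negative cells (log2 ratio 6.46, interval 4.89 to 9.84, the lower level resting on 2 UMIs). It was found in 21 of 86 and 2 of 132 cells, with highest values of 39 and 1 UMIs. *Tnni1*, slow troponin I, had 34.5 against 0.327 CPM (6.40, 4.84 to 9.78) and was found in 31 and 2 cells. *Actc1* and *Acta1*, the cardiac and skeletal alpha-actins, had log2 ratios of 6.32 and 6.29. They rested on few cells: *Actc1* was found in 11 *Myog*-positive cells and 48.0% of its UMIs lay in 1 of them, and *Acta1* was found in 29, with 31.8% of its UMIs in 1 cell. *Mylpf*, the fast regulatory myosin light chain, was broader, with 225 against 9.65 CPM (4.53, 4.16 to 4.95), in 63 and 24 cells and with highest values of 147 and 12 UMIs. The embryonic light chain *Myl4* (log2 ratio 4.39), *Pdlim3* (4.11) and *5430431A17Rik* (4.23) completed the group with *Mymx* and *Mymk*, which are described with the fusion genes.

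Myogenic factors bind E-boxes, short DNA motifs of which CAGCTG is a common form. The upstream sequences of some contractile genes with high ratios in the contrast are shown because they hold these letters. The stretches are 120 bases 5′ to 3′ in the direction of the gene (RefSeq, GRCm38.p6), with CAGCTG, which reads the same on both strands, in capitals and the rest in lower case. The positions are chr7:127211488-127211607 (+) for *Mylpf*, chr1:135799296-135799415 (+) for *Tnni1*, chr8:123894906-123895025 (-) for *Acta1*, chr8:45885291-45885410 (+) for *Pdlim3* and chr1:135836084-135836203 (+) for *Tnnt2*.
Mylpf: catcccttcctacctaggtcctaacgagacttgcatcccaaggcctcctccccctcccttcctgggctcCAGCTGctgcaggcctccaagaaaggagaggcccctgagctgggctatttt
Tnni1: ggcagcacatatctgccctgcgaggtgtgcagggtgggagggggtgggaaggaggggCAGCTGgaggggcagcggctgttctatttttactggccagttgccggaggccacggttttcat
Acta1: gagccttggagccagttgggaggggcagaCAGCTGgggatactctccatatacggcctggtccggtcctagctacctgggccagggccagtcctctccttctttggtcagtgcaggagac
Pdlim3: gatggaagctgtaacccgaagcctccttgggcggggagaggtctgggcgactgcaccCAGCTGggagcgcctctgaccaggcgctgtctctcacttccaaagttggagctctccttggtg
Tnnt2: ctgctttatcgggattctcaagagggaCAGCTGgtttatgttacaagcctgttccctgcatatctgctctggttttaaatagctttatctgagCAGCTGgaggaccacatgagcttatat

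The motif starts 51 bases before the annotated start of *Mylpf*, 68 before one start of *Tnni1* and 158 before another, 221 before *Acta1* and 139 before *Pdlim3*. *Tnnt2* holds 2 copies, the first 223 bases before a start, while the 250 bases before another of its starts held none. Windows from 250 bases before to 50 after the start held CAGCTG in 16.3% of 32851 promoters and in 1257 of the 7385 tested genes that had a window (17.0%). They held it in 44 of 125 genes at least 2-fold higher in *Myog*-positive cells (35.2%) and in 29 of 135 at least 2-fold lower (21.5%). A match is a description of the letters and not a binding site, and the windows of *Myh3* and *Myog* held no CAGCTG upstream of their starts.

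**Figure D3:**
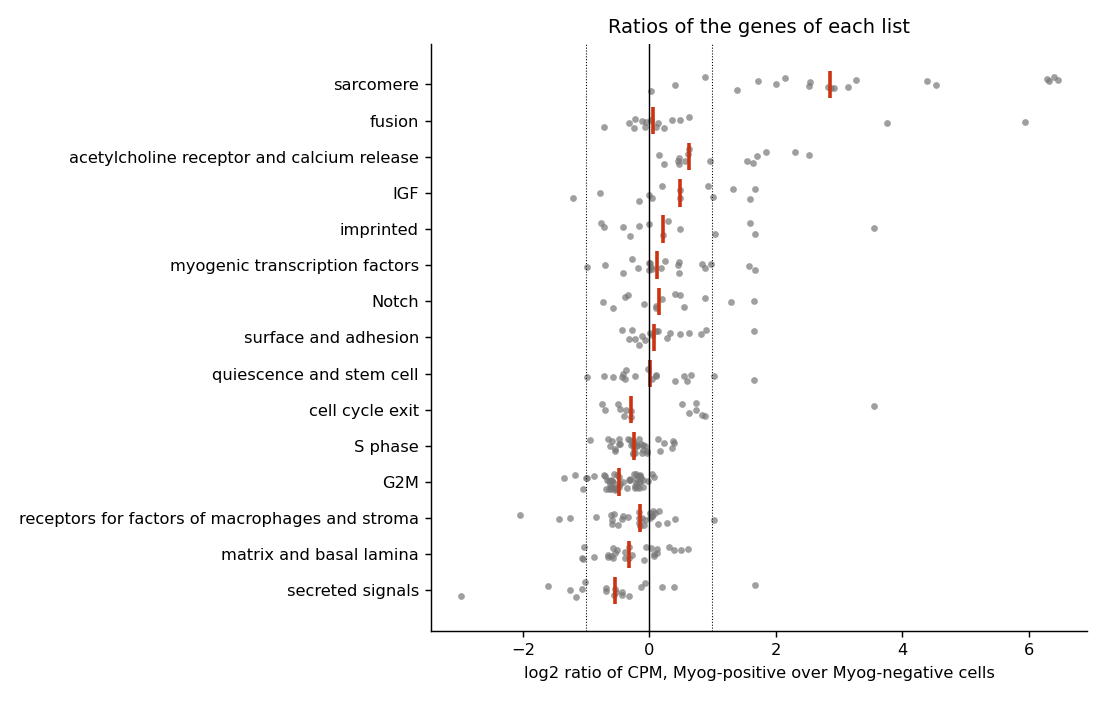
Log2 ratio of *Myog*-positive over *Myog*-negative cells for each gene with at least 50 UMIs (points) in the gene lists, with a bar at the list median and dotted lines at 2-fold. The sarcomere list stands at a median of 2.85, and the other medians drawn run from -0.55 for secreted signals to 0.63 for the acetylcholine receptor list, beside -0.01 for all genes.

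Other sarcomere genes at higher levels in *Myog*-positive cells included the giant proteins *Ttn* (1208 against 464 CPM, log2 ratio 1.38) and *Neb* (85.2 against 21.3) and the troponins *Tnnt2* (109 against 11.3, 3.26) and *Tnnt1* (log2 ratio 2.93). *Ttn* was already widespread, with a median of 18 UMIs in *Myog*-negative cells and 42 in *Myog*-positive cells, and 96.2% of the former had a UMI. *Tpm1* (log2 ratio 0.40), *Ankrd1* (0.03) and *Tpm2* (0.89) were the 3 tested members under 2-fold. The perinatal myosin *Myh8* and the late Z-disc gene *Tcap* had 0 UMIs, which at 3 counts allows at most 0.305 CPM over the 218 cells.

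Genes of mature fibres rested on few members. Of 16 such genes 3 had at least 50 UMIs and 7 had no UMI, among them the adult myosins *Myh2* and *Myh7*, the calcium buffer *Pvalb* and myoglobin, *Mb*. Creatine kinase, *Ckm*, had 5 UMIs, all in *Myog*-positive cells, against 12.3 CPM in free RNA. The 3 genes with at least 50 UMIs were *Eno3*, muscle enolase (650 against 589 CPM, log2 ratio 0.14), *Actn3*, the alpha-actinin of fast fibres (log2 ratio 1.03), and *Atp2a1*, the calcium pump of fast fibres (log2 ratio 2.53).

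Fusion genes divided into a pair with a large contrast and a remainder without one. Of 26 fusion genes 16 had at least 50 UMIs and 2 were at least 2-fold higher in *Myog*-positive cells, with a list median of 0.06. *Mymk*, which encodes the fusion protein myomaker, had 125 against 9.16 CPM (log2 ratio 3.75, 3.36 to 4.19) and was found in 68 of 86 against 30 of 132 cells, with medians of 2 and 0 UMIs and highest values of 42 and 8. *Mymx*, its partner myomixer, had 55.0 against 0.818 CPM (5.94, 4.82 to 7.71) and was found in 42 against 5 cells. Among *Myog*-positive cells, 40 of the 42 with *Mymx* also had *Mymk* (95.2%), while 40 of the 68 with *Mymk* had *Mymx* (58.8%). *Myh3* was detected in 21 cells, of which 20 had *Mymk*, 19 had *Mymx* and 21 had *Cdkn1c*. Other fusion genes were under 2-fold, such as *Cdh15* (156 against 111 CPM, 0.49), *Itgb1* (310 against 326, -0.08) and *Lgals1* (7977 against 7850, 0.02).

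Transcription factors of the lineage differed less than the structural genes. Of 24 factors 20 had at least 50 UMIs besides *Myog*, and 2 were at least 2-fold higher and 0 lower in *Myog*-positive cells (median log2 ratio 0.11). Those were *Mef2a*, a partner of the myogenic factors (252 against 78.9 CPM, log2 ratio 1.67), and *Zbtb18*, a repressor of Id genes (71.2 against 23.9, 1.57). The inhibitors *Id1* (194 against 191 CPM), *Id2* (236 against 233) and *Id3* (460 against 448) had nearly the same level in both groups. *Eya1* also had a log2 ratio of -0.01. Among the rule genes *Myod1* had 717 against 389 CPM, *Myf5* had 25.6 against 41.9, and *Pax7* had a log2 ratio of -0.99.

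Stem cell genes had a list median near that of all genes. Of 24 genes of quiescence and stemness 18 had at least 50 UMIs, 2 were at least 2-fold higher and 0 lower, with a median of 0.01. The higher members were *Fgfr4*, a growth factor receptor of myoblasts (78.2 against 38.3 CPM, log2 ratio 1.03), and *Megf10*, a receptor that acts with Notch (16.7 against 5.24, 1.66). *Vcam1* and *Sdc4*, surface proteins of satellite cells, had 145 against 170 and 170 against 229 CPM. Of 18 tested surface and adhesion genes 1, *Megf10*, was past 2-fold, and the median was 0.07.

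In the Notch pathway, which holds satellite cells undifferentiated, 2 of 14 tested genes were at least 2-fold higher in *Myog*-positive cells and 0 lower (median 0.16). The ligand *Dll1* had 51.2 against 20.8 CPM (log2 ratio 1.30) and was found in 77.9% and 48.5% of cells. The receptors *Notch1* (43.4 against 40.3 CPM) and *Notch3* (21.8 against 20.3) were near equal, and the target *Hes1* had 31.8 against 47.3 (-0.57). The second gene past 2-fold was *Megf10*.

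Cell cycle transcripts were lower in *Myog*-positive cells, by less than 2-fold for most genes. Of the 52 genes of G2 and M phase 4 were at least 2-fold lower and 0 higher (median log2 ratio -0.48), and the list summed to 5612 CPM in *Myog*-positive and 7113 in *Myog*-negative cells. Those 4 genes, *Kif20b* (-1.35), *Gas2l3* (-1.17), *Kif23* (-1.05) and *Cenpe* (-1.01), include 3 mitotic motor proteins. Of the 37 genes of S phase 0 were past 2-fold in either direction (median -0.23), with sums of 2992 and 3441 CPM. The proliferation marker *Mki67* had 125 against 203 CPM and was found in 77.9% of *Myog*-positive and 96.2% of *Myog*-negative cells, with medians of 3 and 8 UMIs and highest values of 28 and 50. *Top2a*, the topoisomerase of dividing cells, had 280 against 425 CPM (log2 ratio -0.60).

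Most *Myog*-positive cells still held cell cycle transcripts. The summed G2 and M list per cell had a median of 5206 CPM (1007 to 13503) in *Myog*-positive cells and 6835 CPM (750 to 19379) in *Myog*-negative cells, against 972 in FAPs and 775 in macrophages. Some FAPs and macrophages were as high, up to 19310 and 16741 CPM. For the S phase list the medians were 2689, 3458, 558 and 532 CPM. Thinned to 3000 UMIs, *Mki67* was found in 33.9% of myogenic cells, 16.7% of FAPs and 10.5% of macrophages. Of the 58 cells with at least 5 *Myog* UMIs, 20 had at least 5 *Mki67* UMIs and 15 had none, while of the 132 *Myog*-negative cells 99 had at least 5 and 5 had none. *Pax7* was likewise retained, in 28 of the 58 cells.

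**Figure D4:**
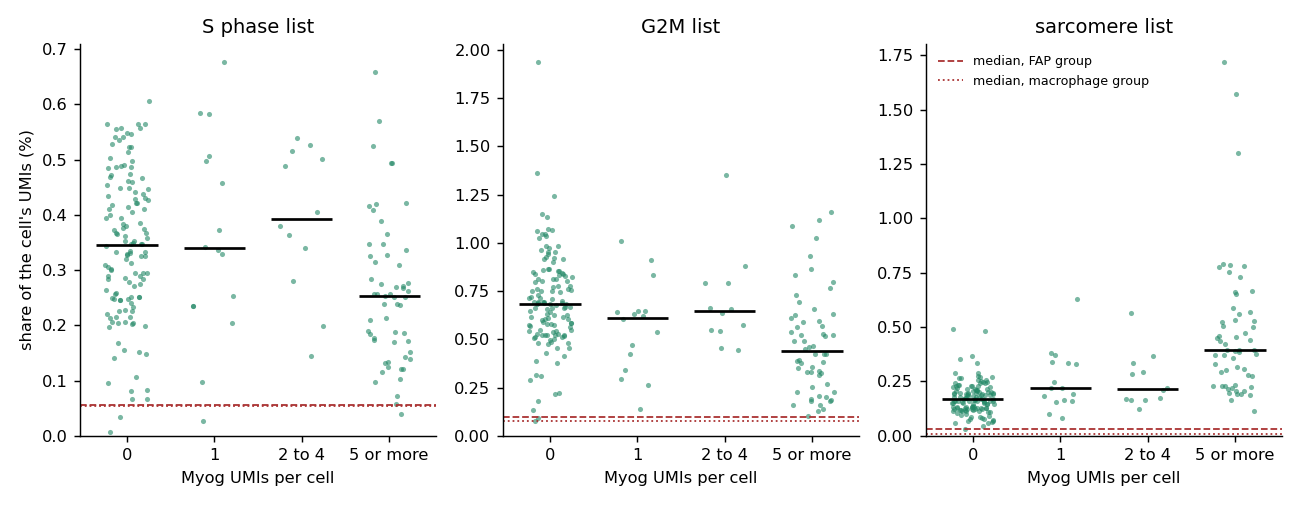
Share of each cell's UMIs (percent) from the S phase, G2 and M phase and sarcomere lists for the myogenic cells of day 3 in 4 classes of *Myog* UMIs, with bars at the medians and lines at the medians of FAPs and macrophages. The ranges overlap in all 3 panels, and the sarcomere share is highest among cells with 5 or more *Myog* UMIs, where its median was 3934 CPM.

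*Cdkn1c*, which encodes the cyclin-dependent kinase inhibitor p57, was the one gene of 15 tested cell cycle exit genes past 2-fold. It had 501 CPM in *Myog*-positive and 42.7 CPM in *Myog*-negative cells (log2 ratio 3.55, 3.37 to 3.75), and was found in 73.3% and 38.6% of the cells, with medians of 3 and 0 UMIs and highest values of 237 and 100. The inhibitor *Cdkn1a*, which encodes p21, had 336 against 203 CPM (log2 ratio 0.73), and *Rb1*, the retinoblastoma protein, 32.6 against 17.7 (0.88). *Ccnd1*, the cyclin of G1 phase, was lower at 256 against 432 CPM (-0.75), and *Ccnd3* was higher at 138 against 82.8 (0.73). The list median was -0.28, so *Cdkn1c* was an exception in it.

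Cells were ordered by *Myog* UMIs (0, 1, 2 to 4, 5 or more, with 132, 16, 12 and 58 cells), although the 2 middle classes hold under 20 cells. *Mymk* was detected in 30, 9, 6 and 53 cells of these classes. *Cdkn1c* was detected in 38.6%, 56.3%, 41.7% and 84.5%, and its level was 42.7, 23.3, 32.6 and 736 CPM. *Mymx* was found in 3.79%, 12.5%, 8.33% and 67.2% and *Myh3* in 1.52%, 6.25%, 0% and 34.5%. High levels of *Cdkn1c*, *Mymx* and *Myh3* were thus found among cells with 5 or more *Myog* UMIs. *Mki67* was detected in 96.2%, 81.3%, 91.7% and 74.1% of cells, and *Pax7* in 63.6%, 43.8%, 58.3% and 48.3%. The S phase list had medians of 3458, 3393, 3931 and 2523 CPM per cell, and the G2 and M list 6835, 6130, 6458 and 4379 CPM. Both lists were thus lowest among cells with 5 or more *Myog* UMIs. The median depth was 46028.5, 40557.5, 44150 and 42140.5 UMIs.

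**Figure D5:**
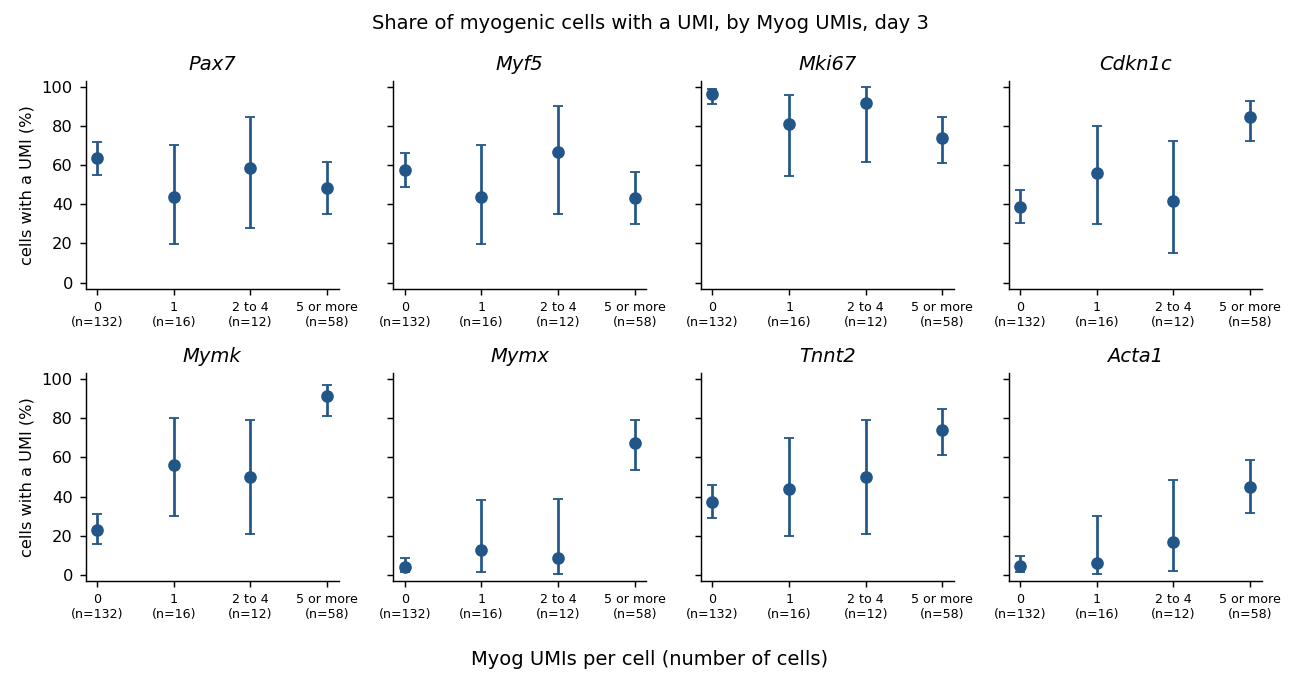
Share of myogenic cells (percent, exact binomial intervals) with at least 1 UMI of each gene in 4 classes of *Myog* UMIs, which hold 132, 16, 12 and 58 cells. *Mymk*, *Mymx* and *Cdkn1c* reach 91.4%, 67.2% and 84.5% in the highest class, while *Mki67* stands at 74.1%.

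The acetylcholine receptor and calcium release machinery, which couples nerve to contraction, was partly in place. Of 22 genes 15 had at least 50 UMIs, and 6 of these were at least 2-fold higher and 0 lower in *Myog*-positive cells, with a median of 0.63. The 6 were the fetal receptor subunit *Chrng* (58.5 against 20.0 CPM, log2 ratio 1.55), the calcium release channel *Ryr1* (32.6 against 6.54, 2.31), *Atp2a1*, *Stac3* (25.3 against 7.04, 1.84), *Cacng1* (1.71) and *Srl* (29.1 against 9.33, 1.64). *Chrna1* was already present in 130 of 132 *Myog*-negative cells and had 517 against 350 CPM. The voltage sensor *Cacna1s* and *Trdn*, which anchors the release complex, had 0 UMIs.

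Several genes of the insulin-like growth factor family were higher in *Myog*-positive cells. Of 13 tested genes 4 were at least 2-fold higher and 1 was lower (median 0.49). *Igf2* had 36.7 against 11.5 CPM (log2 ratio 1.67), *H19*, the noncoding RNA of its locus, 429 against 142 (1.60), *Igfbp5* 431 against 173 (1.32) and *Igfbp6* 37.7 against 18.7 (1.02). When cells with fewer than 200 genes per 1000 UMIs were left out, 6 *Myog*-positive and 7 *Myog*-negative cells remained, and the log2 ratios of *Igfbp5*, *Igf2* and *H19* were -0.58, -1.11 and 0.50, on 65, 42 and 61 UMIs. *Igf1* was lower at 5.93 against 13.9 CPM (-1.21), with 230 CPM in FAPs and 78.0 in free RNA. Among 13 tested imprinted genes, *Cdkn1c*, *Igf2*, *H19* and *Mest* (411 against 201 CPM, 1.03) were at least 2-fold higher and 0 were lower, with a median of 0.22, although *Mest* was at -0.51 in those 13 cells. *Peg3* (276 against 225 CPM) and *Grb10* (180 against 154) were under 2-fold.

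Signalling and matrix genes had list medians below 0, and markers of other cell types differed in the same direction: FAP markers summed to 1130 CPM in *Myog*-positive and 1824 in *Myog*-negative cells, with 45.3% of their UMIs in 5 cells, and macrophage markers to 444 and 650 CPM. Their part in the result was not tested. Of 19 tested secreted signals 6 were at least 2-fold lower and 1, *Igf2*, was higher (median -0.55). Of 30 tested receptors 3 were lower and 1, *Fgfr4*, was higher (-0.15), and of 27 matrix genes 3 were lower and 0 higher (-0.33). The chemokines *Cxcl12* (24.8 against 75.3 CPM), *Cxcl1* (70.6 against 169) and *Ccl7* (39.6 against 82.9) had levels of 219, 372 and 598 CPM in free RNA. *Met* was similar in both groups (111 against 125 CPM), and its level in free RNA was 11.3 CPM. *Spp1*, which encodes osteopontin, was found in 98.8% of *Myog*-positive and every *Myog*-negative cell with 521 against 649 CPM, under the 3323 CPM of free RNA. The 3 chemokines and *Spp1* thus lay below the level of undiluted free RNA in both groups, and *Met* lay above it. Free RNA made up at most 7.93% of the UMIs of myogenic cells. A level below it therefore does not show that the UMIs of these genes were stray.

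The 10 genes with the lowest ratio were mostly genes of other cell types. *Car3*, a carbonic anhydrase, had 121 UMIs in the *Myog*-negative group, all in 1 cell, and 0 in the other. The others were *Cxcl14*, *Ltbp2*, *Sfrp2* and *Sfrp1*, secreted by stromal cells, *Mrc1*, *Ccl4* and *Ms4a6b* of myeloid cells, and *H2-Ab1* and *H2-Aa* of antigen presentation, with log2 ratios from -2.97 to -1.67. In all but *Car3* the level in free RNA was above that in the myogenic cells.

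Markers of other cell types were measured in the members. The 10 macrophage markers summed to 444 CPM in *Myog*-positive and 650 in *Myog*-negative cells (0 to 6672 and 0 to 8011 CPM per cell, medians 114 and 107), against 8555 in free RNA. The 8 FAP markers summed to 1130 and 1824 CPM (17.0 to 24648 and 0 to 21351 per cell, medians 226 and 236), against 6126 in free RNA. All 10 and all 8 had UMIs, and 36.5% and 45.3% of these UMIs lay in the 5 highest cells. Markers of neutrophils, endothelial, Schwann, lymphoid and red blood cells each summed to no more than 23.7 CPM over all 218 cells, with *Retnlg*, *Kdr*, *Sox10*, *Cd3d*, *Cd3e*, *Nkg7*, *Ms4a1*, *Hbb-bt* and *Hbb-bs* at 0. In the tenocyte and pericyte lists single genes carried the sum, *Scx* with 142 against 57.1 CPM and *Acta2* with 116 against 46.5, while *Tnmd* had 4 UMIs and *Myh11* had 2.

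A UMI of *Pdgfra*, *Pecam1* or *Ptprc* was found in 52 of the 218 cells, 13 of the *Myog*-positive (15.1%) and 39 of the *Myog*-negative (29.5%). These 52 cells held 87.5% of the UMIs of the macrophage and FAP markers. Without them 161 genes were at least 2-fold higher and 66 lower of 8261 tested. Of the 172 higher genes 151 still had 50 UMIs and 128 remained past 2-fold, with all 10 of the highest among them. Of the 180 lower genes 66 still had 50 UMIs and 43 of these remained past 2-fold, and 0 of the 10 lowest still had 50 UMIs. With the 171 barcodes of day 3 with the highest doublet scores removed instead, 157 of the 172 higher genes still had 50 UMIs and 138 stayed past 2-fold. Of the 180 lower genes 102 still had 50 UMIs and 81 stayed past 2-fold, with 4 of the 10 lowest among them. As a mean over cells, 160 of the 172 higher and 111 of the 180 lower genes stayed past 2-fold. Whether the 52 cells were doublets was not tested.

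Summed over cells, the 76 barcodes above the mitochondrial limit had higher levels of several late muscle transcripts. They had 7.51% to 55.0% mitochondrial UMIs (median 9.11%) and a median of 25851 UMIs, and 24 were *Myog*-positive (31.6%, 21.4 to 43.3). Their *Myog* level was 666 CPM against 225 in the 218 members, *Acta1* 476 against 46.7, *Mymk* 143 against 52.7 and *Cdkn1c* 578 against 216. *Pax7* was higher as well, at 61.7 against 28.4 CPM, while *Mki67* was similar at 161 against 173 and *Gal* lower at 783 against 961. The limit thus left out barcodes with higher summed levels of several differentiation genes, although a smaller share of them held *Myog* (31.6% against 39.4%). How these UMIs were spread over the 76 barcodes was not measured.

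On day 1 the same rule found 7 myogenic cells among 6735 (0.104%, 0.0418 to 0.214). The days are separate libraries of separate mice with different barcode lists, so day and library cannot be told apart. *Myod1* was found in all 7 cells with 13 to 64 UMIs (median 41, 1052 CPM against 513 on day 3), and *Pax7* in 5. *Myog*, *Mymk*, *Mymx*, *Acta1* and *Myh3* had 0 UMIs in 278648, which allows up to 10.8 CPM, and 0 of 7 cells allows a *Myog*-positive share of up to 42.9%, above the share of day 3. *Ccnd1* had 549 CPM against 366, and the S phase list 3481 against 3272. *Mki67* was lower, at 25.1 CPM (10.1 to 51.8) against 173, and so were the G2 and M list at 2247 against 6546 and the sarcomere list at 406 against 2586. *Gal* had 201 CPM, but 55 of its 56 UMIs lay in 1 cell. Of the 626 UMIs of the G2 and M list 243 lay in 1 cell. In these 7 cells *Myod1* and S phase transcripts stood beside lower levels of mitotic and contractile transcripts than in the myogenic cells of day 3.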

How the data were processed

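Mononuclear cells of injured quadriceps were sequenced by droplet 3′-end RNA-seq, 1 library per day. The authors deposited raw counts of UMIs per gene and barcode for 32285 genes, made with Cell Ranger 5.0.0 on mm10 per the labels' processing notes, while the header of the matrix names version 4. Total UMIs were 74852240 on day 1 and 102565783 on day 3. The 7367 and 6640 barcodes with most UMIs were kept if they had at least 1000 UMIs, 200 genes and no more than 7.5% mitochondrial UMIs. Doublets were not removed in the main analysis.

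Counts were summed over the cells of a group and divided by all their UMIs to give CPM, with exact Poisson intervals at 95%. Shares have exact Clopper-Pearson intervals. Log2 ratios add 0.5 to each sum, with an exact binomial interval. Genes needed at least 50 UMIs, and a gene was called higher or lower past 2-fold. A count of 0 was read as allowing 3 counts. Barcodes with no more than 100 UMIs gave the level of free RNA. The named genes were members of the gene lists, the 10 highest and 10 lowest ratios among genes with at least 100 UMIs, and the 10 highest over other cells among genes with at least 200. The members, the rule and the lists were chosen with earlier results of these data known. On simulated Poisson counts of 9235 genes for the *Myog* contrast, 100% of genes with a log2 change of 3 and 100% with 1.5 were past 2-fold. So were 100% with -3, 98% with -1.5 and 0.166% of unchanged genes. The simulation had no variation between cells, so its 0.166% does not apply to real genes whose UMIs lie in few cells. Promoter windows were RefSeq sequences of GRCm38.p6 matched by symbol. Python 3.11.15, numpy 2.4.6, scipy 1.17.1, pandas 2.3.3 and scanpy 1.11.5 were used. Alternatives changed the barcode limit, mitochondrial, *Lyz2* and factor limits, genes per UMI, doublet removal, marker-holding cells, the *Myog* limit, thinning, weighting, free RNA and the gene minimum. Some items are not reported here.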

Additional observations from a re-analysis of the deposited data

How the results depend on the processing

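Of 70 values under alternative processing 46 stayed within 1.5 times the main count or within the main interval, 24 moved and 0 reversed. For the 80 genes past 2-fold that the lists or the rule for named genes hold, 705 ratios had at least 50 UMIs, of which 623 stayed, 78 moved and 4 reversed, namely *Igfbp5* (-0.58), *Mest* (-0.51) and *Col1a1* (6.26) with the genes per UMI limit and *Col1a1* (0.21) after thinning. Another 175 ratios rested on fewer than 50 UMIs, and 41 of these changed sign. The day 3 share of 4.71% became 5.40% when barcodes were kept down to 10% of the UMIs of the 99th percentile barcode, 5.60% at a mitochondrial limit of 15% and 3.59% without the cells holding *Pdgfra*, *Pecam1* or *Ptprc*. Leaving out cells with fewer than 200 genes per 1000 UMIs kept 6 *Myog*-positive and 7 *Myog*-negative cells. The myogenic share was then 0.392% on day 3 and 0% on day 1. Of 506 genes then tested, beside 9235 in the main analysis, 27 were higher and 26 lower. Thinning gave a *Myog* share of 21.1% with 33 genes higher and 51 lower of 1944 tested. No gene minimum gave 1682 higher and 1403 lower of 16315 tested. Without the marker-holding cells 66 genes were lower of 8261 tested. The S and G2M lists together had a log2 ratio of -0.29 in the main analysis, and -0.34 at the mitochondrial limit of 15%, -1.004 with the genes per UMI limit, -0.35 for *Myog* of at least 2 UMIs, -0.48 after thinning and -0.34 as a mean over cells. The sarcomere list, at 1.21, became 1.45, 1.52, 1.31 and 1.39 under the first 4 of these, 1.17 with *Lyz2* under 0.2% and 1.16 after removing the 171 barcodes of day 3 with the highest doublet scores. A minimum of 10 myogenic cells per gene was added after seeing the data, and 170 of the 172 higher and 178 of the 180 lower genes met it. No paired analysis was possible because each day has 1 library from its own pool of mice. Depth limits what can be said of genes with few UMIs and of the 7 cells of day 1.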
